A study of Mus musculus with 12 samples.

Results

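Heterotrimeric G-protein subunit genes were examined in HSCs of WT and Pon2-/- mice. The list held 10 genes, 3 for β subunits (Gnb1, Gnb2 and Gnb4) and 7 for α subunits (Gnai2, Gnai3, Gnaz, Gnaq, Gna15, Gnas and Gna13), out of 49585 genes counted in each sample. Members were chosen by name, with earlier results of these data known, and their Ensembl identifiers were matched to symbols. Gnb4 and Gnaz were set against the other 8 genes.

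The samples were HSCs (Lin-, Sca1+, ckit+, CD135- and CD150+) sorted from BM, with 6 WT and 6 Pon2-/- animals at an age of 10 to 14 weeks. This gate holds LT-HSCs and MPP2 cells. All mice are labelled C57BL/6J and were killed with 2% pentobarbital, given i.p. WT mice came from a commercial breeder, whereas Pon2-/- mice carry a β-geo gene trap flanked by loxP sites in intron 2 of Pon2, the gene of an antioxidative paraoxonase. A difference in the origin of the mice cannot be told apart from genotype here. Per mouse, 8 wells of 10 cells were processed by Smart-seq2, which amplifies full-length cDNA without strand information, and 1 value per gene and mouse was analysed here.

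Heterotrimeric G proteins pass signals from receptors with seven-transmembrane topology to enzymes and channels inside the cell. An activated receptor makes the α subunit exchange GDP for GTP, upon which α separates from the βγ dimer, and both act on effectors. The α subunits fall into the Gs, Gi/o/z, Gq/11 and G12/13 classes, and chemokine receptors such as CXCR4, which retain HSCs in the BM, signal mainly through Gi.

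The β subunit genes encode proteins of equal length and differ throughout their coding sequence. The first 60 coding bases are shown because they let a reader see how far Gnb4 is from its paralogs. Capitals mark bases that differ from Gnb1, and there are 15 of them in Gnb2 and 17 in Gnb4.
Gnb1: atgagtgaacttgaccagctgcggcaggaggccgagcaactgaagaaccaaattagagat
Gnb2: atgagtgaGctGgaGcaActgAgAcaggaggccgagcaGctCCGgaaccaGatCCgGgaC
Gnb4: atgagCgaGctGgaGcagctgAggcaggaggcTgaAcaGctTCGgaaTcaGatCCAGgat

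These stretches lie, with introns, at chr4:155527453-155533699 (plus strand), chr5:137530434-137530751 (minus strand) and chr3:32598162-32602101 (minus strand) of GRCm38. Over the whole coding sequence of 340 codons, Gnb4 was 76.9% identical to Gnb1 and 75.6% identical to Gnb2. The longest run of bases that the transcript of Gnb4 shared with that of Gnb1 was 27, and with that of Gnb2 it was 20.

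For the Gi/z class, the last 30 coding bases before the stop codon are shown because the codon in capitals, 4 from the end, is one at which Gz differs from Gi. In Gi subunits this codon encodes the cysteine that pertussis toxin modifies, and Gz is known to be insensitive to the toxin.
Gnai2: aagaacaacctgaaggacTGTggcctcttc
Gnai3: aaaaacaacttaaaggaaTGTgggctttat
Gnaz: cagaacaatctcaagtacATCggcctttgc

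They lie at chr9:107615638-107615667 (minus strand), chr3:108109425-108109454 (minus strand) and chr10:75015180-75015209 (plus strand). Gnaz was 69.0% identical to Gnai2 and 63.7% identical to Gnai3 in the coding sequence, and its longest runs shared with their transcripts were 35 and 14 bases. The longest transcript of each listed gene was compared with all annotated transcripts. The only near-identical copy found was the pseudogene Gnb1-ps2, 91.4% identical to Gnb1 over 336 bases. Copies of other transcripts of the listed genes, including those of Gnas, are not covered.

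Libraries held 12967791 to 24228280 counts in the WT group and 14671353 to 23122382 in the Pon2-/- group, and 13941 to 15656 genes had at least 1 count. Levels are given as counts per 1000000 counts (CPM) of the TMM-scaled library. Where no read was counted, up to 3 counts are possible, or 0.121 to 0.235 CPM depending on the library. Reads carried no molecular identifiers, so PCR copies are counted as reads and this limit covers counting error only. Pon2 itself had 56.4 to 202 CPM in WT against 1.16 to 33.1 CPM in Pon2-/- HSCs, without overlap. The 10 HSC markers summed to 2082 to 2775 CPM in WT and to 1932 to 2706 CPM in Pon2-/- HSCs, and all 10 were detected. Among markers that the gate selects against, Cd3e, Cd5 and Cd8a were at 0, but Flt3 (CD135), Itgam, Ly6g and Cd4 were detected. Flt3 averaged 31.3 CPM over the WT libraries (SD 16.8), against 48.3 CPM over the Pon2-/- libraries (SD 16.1, n = 6 each). Flt3 and Itgam had counts in all 6 libraries of each genotype and Ly6g in 4 of each. Cd4 had counts in 2 Pon2-/- libraries only. Of 9 erythroid markers, Car1 and Ermap were at 0 and 7 were detected. Counts on Y-linked genes were present in 3 WT and 4 Pon2-/- libraries, so both sexes occur in both groups.

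Gnb4 was the subunit gene whose level separated the genotypes. Gnb4 (ENSMUSG00000027669.14, chr3:32580332-32616585, minus strand) encodes a β subunit that, with a γ subunit, forms the dimer released on receptor activation. None of its exonic bases is shared with another gene. The Gnb4 level was 29.9 CPM in the lowest WT sample, 57.2 CPM at the WT median and 119 CPM in the highest WT sample. In Pon2-/- HSCs the corresponding levels were 122, 193 and 352 CPM. Thus each of the 6 Pon2-/- samples lay above each of the 6 WT samples, although the highest WT sample (replicate 1) and the lowest Pon2-/- sample (replicate 2) were close. Mean levels were 63.5 ± 31.5 CPM for WT and 207 ± 79.96 CPM for Pon2-/- mice (SD, n = 6 each). This gave a log2 fold change of 1.71 (standard error 0.34, 95% confidence interval 0.98 to 2.43), which is 3.27-fold.

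An exact permutation test of log2 CPM gave p = 0.00216 for Gnb4 (two-sided, 924 relabellings), the smallest p that 6 against 6 samples allow. Gnb4 was set apart with earlier results of these data known. Its permutation p and unadjusted edgeR p do not cover that choice and are no independent evidence. Of the 11848 genes tested, 0.633% had no overlap between the genotypes in either direction and 0.388% had all Pon2-/- samples higher. In the edgeR fit over all genes, p was 0.000183 and the adjusted p was 0.0747, so Gnb4 did not pass the threshold of 0.05. With edgeR, 0 of the 10 subunit genes were called (adjusted p below 0.05 and absolute log2 fold change above 1), against 0.203% of all tested genes in either direction and 0.127% in the direction higher in Pon2-/- HSCs, although Gnb4 and Gnaz had an unadjusted p below 0.05, as did 3.13% of all tested genes. The call of Gnb4 depended on the tool, the filter and 1 library. DESeq2 with default settings, the tool of the study, called Gnb4 (adjusted p = 6.47e-05) along with 1.79% of the genes it tested, and limma voom with sample quality weights did not (adjusted p = 0.0787; 0.194% of genes called). Without WT replicate 1, edgeR called it as well (log2 fold change 1.98, adjusted p = 0.0212), and so it did with a filter of 10 reads in all samples of either genotype (log2 fold change 1.71, adjusted p = 0.0366).

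Since each Pon2-/- sample exceeded each WT sample, Gnb4 could not overlap within any subset of the libraries, and only its levels are given for libraries with and without Y-linked counts. In libraries without Y-linked counts, Gnb4 was at 44.4 to 119 CPM in 3 WT and at 122 to 227 CPM in 2 Pon2-/- samples. In libraries with Y-linked counts it was at 29.9 to 73.5 CPM in 3 WT and at 157 to 352 CPM in 4 Pon2-/- samples. With Y-linked counts as a term, the log2 fold change was 1.70 (standard error 0.36, edgeR adjusted p = 0.165).

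The sum of markers of some other cells was on average higher in Pon2-/- HSCs, as was Gnb4. Cd48, which marks MPP2 cells and is not part of the gate used here, had 41.4 ± 24.5 CPM in WT HSCs against 133 ± 52.1 CPM in Pon2-/- HSCs (SD, n = 6 each), and the fit gave a log2 fold change of 1.68 (standard error 0.62, edgeR adjusted p = 1.0). Exact permutation gave p = 0.00433 for Cd48, and 5 of the 6 Pon2-/- samples lay above the WT range. Pon2-/- replicate 3 had the highest level of both genes, 205 CPM for Cd48 and 352 CPM for Gnb4. In Pon2-/- replicate 6, Cd48 lay within the WT range (61.3 CPM against 1.02 to 72.1 CPM) while Gnb4 was at 157 CPM, above each WT sample. Together with 7 markers that the gate selects against, Cd48 summed to 52.8 to 139 CPM in WT and to 96.7 to 290 CPM in Pon2-/- HSCs, and Cd48 was the most abundant of the 5 detected among these 8 markers. Megakaryocyte markers summed to 232 to 295 CPM in WT and to 204 to 311 CPM in Pon2-/- HSCs. Myeloid markers summed to 393 to 597 and 328 to 563 CPM, and erythroid markers to 40.7 to 105 and 28.4 to 112 CPM. Within the erythroid list, fitted levels went both ways. The log2 fold change was 3.60 for Klf1 (standard error 1.99), 1.19 for Epor (1.56), 0.94 for Gata1 (1.62) and 0.04 for Tfrc (0.73). It was -0.13 for Hba-a1 (1.10) and -0.69 for Alas2 (1.70), and the genotypes overlapped for all of these markers. The β-globin gene Hbb-bt was at 6.11 to 38.1 CPM in WT and at 0 to 1.11 CPM in Pon2-/- HSCs. Its genotypes did not overlap (log2 fold change -7.04, standard error 1.65, edgeR adjusted p = 0.265), as was the case for 0.245% of all tested genes in that direction. Fewer or more cells of a type and less or more RNA per cell cannot be told apart in such bulk samples, and the part of Cd48-positive cells and of erythroid transcripts in the Gnb4 result was not tested.

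**Figure D1:**
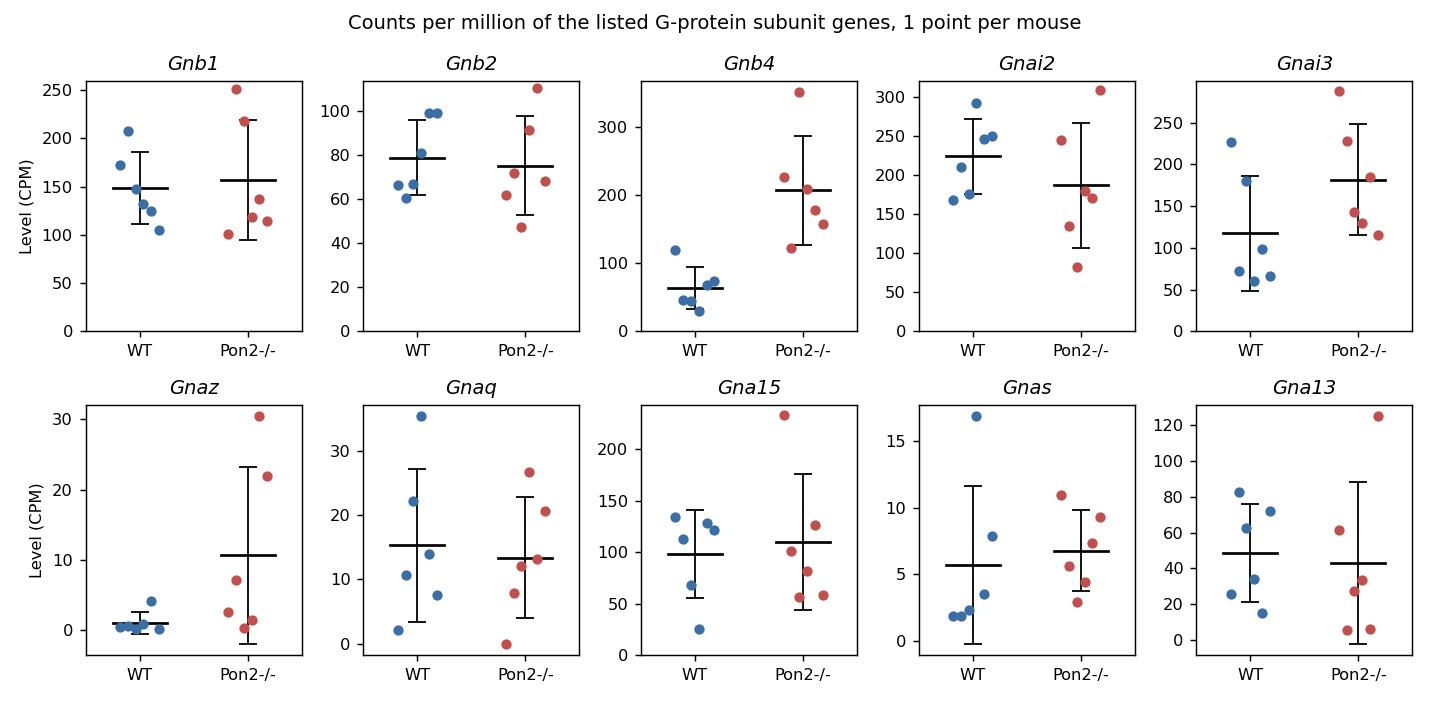
Level of each listed subunit gene in CPM (y axis, linear, a separate scale per gene) in WT and Pon2-/- HSCs (x axis). Points are mice (n = 6 per genotype), bars are the mean and SD. The Gnb4 points of Pon2-/- mice all lie above 119 CPM, the highest WT value, whereas the points of the other 9 genes overlap.

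The other β subunit genes did not follow Gnb4. Gnb1 (chr4:155491361-155559269, plus strand) had 105, 140 and 208 CPM in the lowest, median and highest WT sample and 101, 128 and 252 CPM in Pon2-/- HSCs. Gnb2 (chr5:137528127-137533510, minus strand) had 60.2, 73.7 and 99.1 CPM in WT and 47.0, 69.8 and 110 CPM in Pon2-/- HSCs. For both genes the Pon2-/- samples reached below and above the WT range. The log2 fold change was 0.08 for Gnb1 (standard error 0.25, 95% confidence interval -0.47 to 0.63) and -0.07 for Gnb2 (standard error 0.25, 95% confidence interval -0.60 to 0.46), so that differences beyond 1.54-fold for Gnb1 and 1.38-fold for Gnb2 in the upward direction lay outside the intervals. The adjusted p was 1.0 for both genes with edgeR. Gnb2 shares 134 exonic bases with Epo and Mir6418, neither of which had counts.

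Ratios within a sample need no library size and set Gnb4 directly against its paralogs. Gnb4 and Gnaz were set apart with earlier results of these data known, so the p-values of the 4 ratios do not cover that choice and are no independent evidence. Per mouse, the Gnb4 count came to 22.2% to 70.3% of the Gnb1 count in WT HSCs, with a median of 42.4%. It came to 48.3% to 224% in Pon2-/- HSCs, with a median of 149%. Of the 6 Pon2-/- samples, 5 exceeded the WT range, and replicate 2 did not. The mean log2 ratio was -1.33 ± 0.78 in WT and 0.41 ± 0.77 in Pon2-/- HSCs (SD, n = 6 each). The difference of 1.74 corresponds to a 3.34-fold higher ratio (two-sided exact permutation test, p = 0.00866, 0.0173 after Benjamini-Hochberg adjustment over 4 ratios).

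Relative to Gnb2, the Gnb4 count was 37.1% to 179% in WT HSCs, with a median of 71.6%, and 161% to 748% in Pon2-/- HSCs, with a median of 230.1%. Here 4 of the 6 Pon2-/- samples exceeded the WT range. The mean log2 ratio was -0.42 ± 0.73 in WT and 1.44 ± 0.83 in Pon2-/- HSCs (SD, n = 6 each), a difference of 1.86 or 3.63-fold (two-sided exact permutation test, p = 0.00649, adjusted p = 0.0173). These ratios compare counts, which also depend on gene length, so only their difference between genotypes is read.

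**Figure D2:**
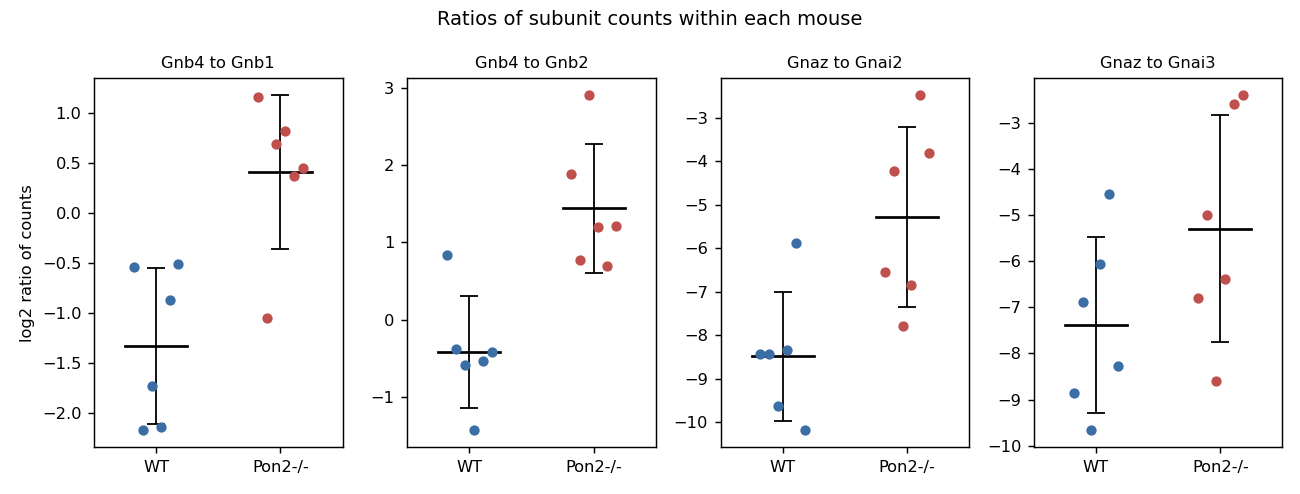
Ratio of 2 subunit counts within each mouse on a log2 scale (y axis, 0.5 added to each count) in WT and Pon2-/- HSCs (x axis). Points are mice (n = 6 per genotype), bars are the mean and SD. Both Gnb4 ratios are higher in Pon2-/- HSCs by 1.74 and 1.86, and the Gnaz ratios spread more widely.

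Levels per length show the part of each paralog in the summed level of the 3 listed β genes. With CPM divided by the length of all annotated exons, Gnb1 had 34.7 ± 8.70, Gnb2 23.1 ± 5.03 and Gnb4 5.0 ± 2.48 CPM per kb in WT HSCs (SD, n = 6). In Pon2-/- HSCs the levels were 36.7 ± 14.6, 22.04 ± 6.61 and 16.3 ± 6.3 CPM per kb (SD, n = 6). Gnb4 took 4.13% to 13.5% of the summed level of the 3 genes in WT and 10.7% to 29.95% in Pon2-/- HSCs. Gnb5, a further β gene, is not in these shares. By the same length it had 7.97 CPM per kb in WT, above Gnb4, and 5.91 in Pon2-/- HSCs, below Gnb4. The annotation of Gnb4 spans 12692 exonic bases, while its longest coding transcript has 5997. Per length of the longest coding transcript, the Gnb4 share was 5.51% to 17.9% in WT and 14.6% to 38.3% in Pon2-/- HSCs. Gnb4 had the lowest mean of the 3 paralogs in both genotypes by either length. In Pon2-/- HSCs, however, the mean log2 difference between Gnb2 and Gnb4 was 0.46 with an SD of 0.83 over the 6 mice per length of all exons, so that these neighbours did not differ beyond their spread.

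**Figure D3:**
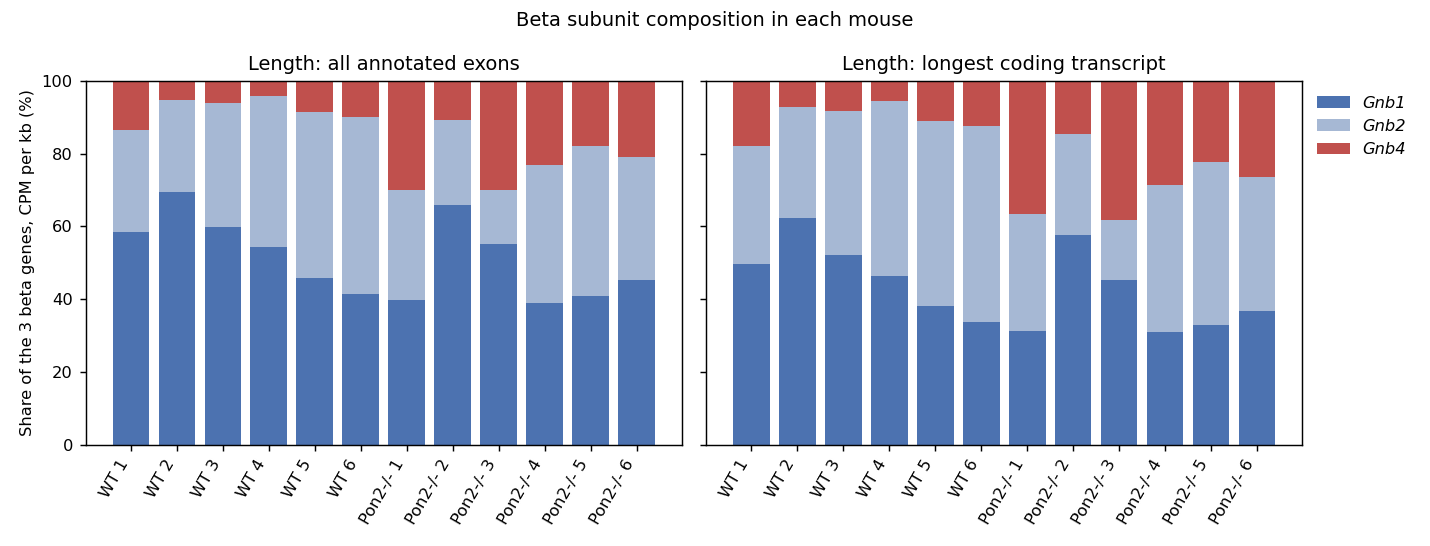
Share of Gnb1, Gnb2 and Gnb4 (y axis, percent of their summed CPM per kb) in each mouse (x axis), with CPM divided by the length of all annotated exons (left) or of the longest coding transcript (right). The Gnb4 part is at most 13.5% (left) in WT samples and reaches 29.95% in Pon2-/- samples, and Pon2-/- replicate 2, at 10.7%, lies within the WT range.

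Gnaz (ENSMUSG00000040009.5, chr10:74967177-75016907, plus strand), the gene of the α subunit of Gz, was low and uneven. Its level was 0.18 CPM in the lowest WT sample, 0.52 CPM at the median and 4.14 CPM in the highest WT sample. In Pon2-/- HSCs the lowest, median and highest levels were 0.34, 4.86 and 30.4 CPM. Summed over 6 samples, this corresponded to 98 counts in WT and 1259 counts in Pon2-/- HSCs. Pon2-/- replicates 5 (658 counts), 6 (364 counts) and 2 (166 counts) exceeded the WT range, whereas the other 3 Pon2-/- samples, with 6 to 43 counts, lay within it. The sample with the highest level held 48.5% of all Gnaz counts.

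The log2 fold change of Gnaz was 3.31 (standard error 1.23, 95% confidence interval 0.67 to 5.95), or 9.92-fold. With edgeR, the unadjusted p was 0.0176 and the adjusted p 1.0. Exact permutation of log2 CPM gave p = 0.0433. Like Gnb4, Gnaz was set apart with earlier results known, so its permutation p and unadjusted p are no independent evidence. DESeq2 with default settings gave an adjusted p of 0.0679, and only without Cook's cutoff, which screens single extreme counts, did it call Gnaz (adjusted p = 0.0337), along with 4.2% of the genes it tested. Single libraries moved the estimate: it was 2.63 without Pon2-/- replicate 5 and 4.52 without WT replicate 5, neither of which was called by edgeR (adjusted p = 1.0 and 0.781). In libraries without Y-linked counts, Gnaz was at 0.20 to 0.58 CPM in 3 WT and at 2.57 to 7.16 CPM in 2 Pon2-/- samples. In libraries with Y-linked counts, the ranges overlapped, with 0.18 to 4.14 CPM in 3 WT and 0.34 to 30.4 CPM in 4 Pon2-/- samples. The 9 lymphoid markers summed to 45.2 to 359 CPM in WT and to 114 to 494 CPM in Pon2-/- HSCs. Pon2-/- replicate 5, with the highest Gnaz level, had the highest lymphoid sum, while replicate 6, with the next highest Gnaz level, had the lowest lymphoid sum among the Pon2-/- samples (114 CPM). The part of lymphoid cells in the Gnaz result was not tested.

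Against the other α subunits of its class, Gnaz made up little of the counts in both genotypes. As a share of the Gnai2 count, Gnaz came to 0.0737% to 1.68% in WT HSCs, with a median of 0.277%. In Pon2-/- HSCs it came to 0.414% to 17.8%, with a median of 3.18%. The mean log2 ratio was -8.48 ± 1.48 in WT and -5.29 ± 2.07 in Pon2-/- HSCs (SD, n = 6 each), with 3 of the 6 Pon2-/- samples above the WT range. The difference was 3.19 (two-sided exact permutation test, p = 0.0216, adjusted p = 0.0289 over the 4 ratios). Without WT replicate 3 it was 2.97, and without WT replicate 6 it was 2.85, each with an adjusted p of 0.0519 in the exact permutation test. Relative to Gnai3, the difference was 2.09 and did not pass the test (exact permutation test, p = 0.143, adjusted p = 0.143), with 2 of 6 Pon2-/- samples above the WT range.

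The α subunits of the Gi proteins inhibit adenylyl cyclase. In both genotypes, their genes took the largest part of the summed level per length of the listed α genes. Gnai2 (chr9:107614125-107635367, minus strand) had 168, 228 and 291 CPM in the lowest, median and highest WT sample and 82.3, 175 and 309 CPM in Pon2-/- HSCs. Pon2-/- samples lay on both sides of the WT range, with a log2 fold change of -0.26 (standard error 0.27, 95% confidence interval -0.84 to 0.32, edgeR adjusted p = 1.0). Gnai3 (chr3:108107280-108146146, minus strand) had 60.4, 85.1 and 226 CPM in WT and 116, 164 and 288 CPM in Pon2-/- HSCs. Its log2 fold change was 0.63 (standard error 0.36, 95% confidence interval -0.14 to 1.40, edgeR adjusted p = 1.0). Exact permutation gave p = 0.0801, and 2 Pon2-/- samples lay above the WT range.

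Gnai3 was also compared among libraries with and without Y-linked counts. The split was added after seeing the data and was run on each listed gene. Only Gnb4 and Gnai3 had no overlap in both parts, and Gnai3 is shown for that reason. Its p-values below do not cover this choice and are no independent evidence. In libraries without them, Gnai3 was at 72.1 to 226 CPM in 3 WT and at 228 to 288 CPM in 2 Pon2-/- samples. In libraries with them, it was at 60.4 to 98.0 CPM in 3 WT and at 116 to 185 CPM in 4 Pon2-/- samples. Exact permutation gave p = 0.2 for the former, where the smallest possible is 0.1, and p = 0.0286 for the latter, where it is 0.0286. Without overlap, the observed difference is the largest that any relabelling gives in its direction. Both p-values therefore follow in large part from how Gnai3 was picked. With Y-linked counts as a term the log2 fold change was 0.84 (standard error 0.26, unadjusted p = 0.00742, edgeR adjusted p = 0.823), so Gnai3 was not called.

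Gnaq (chr19:16132831-16387463, plus strand) and Gna15 (chr10:81502306-81524225, minus strand) belong to the Gq/11 class, which activates phospholipase Cβ. Gna15 is known for its expression in hematopoietic cells and for coupling to many receptors. Its level was 25.0, 117 and 134 CPM in the lowest, median and highest WT sample and 56.7, 91.4 and 233 CPM in Pon2-/- HSCs. The ranges overlapped, with 1 Pon2-/- sample above the WT range and none below it. Per length, Gnaq was below Gna15 in each sample. Gnaq had 2.04, 12.3 and 35.4 CPM in WT against 0.00, 12.6 and 26.6 CPM in Pon2-/- HSCs. Pon2-/- replicate 1 had no Gnaq count, which allows up to 0.179 CPM. The log2 fold change was 0.16 for Gna15 (standard error 0.42) and -0.19 for Gnaq (standard error 1.07, 95% confidence interval -2.49 to 2.10), both with an edgeR adjusted p of 1.0.

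Gna13 (chr11:109362831-109401369, plus strand), whose product acts on guanine nucleotide exchange factors, had 15.2, 48.5 and 82.6 CPM in WT and 5.91, 30.3 and 125 CPM in Pon2-/- HSCs (lowest, median and highest). The Pon2-/- samples exceeded the WT range at both ends, with a log2 fold change of -0.18 (standard error 0.70, 95% confidence interval -1.68 to 1.32, edgeR adjusted p = 1.0). Gna13 shares 151 exonic bases with the antisense gene Gm11696, which had 1808 counts over all samples, and reads of these bases cannot be told apart by strand.

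Gnas (chr2:174284320-174346744, plus strand) encodes the stimulatory α subunit of adenylyl cyclase signaling and is imprinted. Its level was 1.85, 2.93 and 16.9 CPM in WT and 2.96, 6.5 and 11 CPM in Pon2-/- HSCs (lowest, median and highest), and all Pon2-/- samples lay within the WT range. The log2 fold change was 0.24 (standard error 0.79, 95% confidence interval -1.46 to 1.94, edgeR adjusted p = 1.0). The level of Gnas is uncertain, since 1139 of the 1182 bases of its coding sequence (96.4%) lie in exons of the antisense gene Gm20721, which had 2 counts in all samples. Without strand information, reads from Gnas and from an antisense partner cannot be told apart, so the low count of Gnas is not read as low expression.

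**Figure D4:**
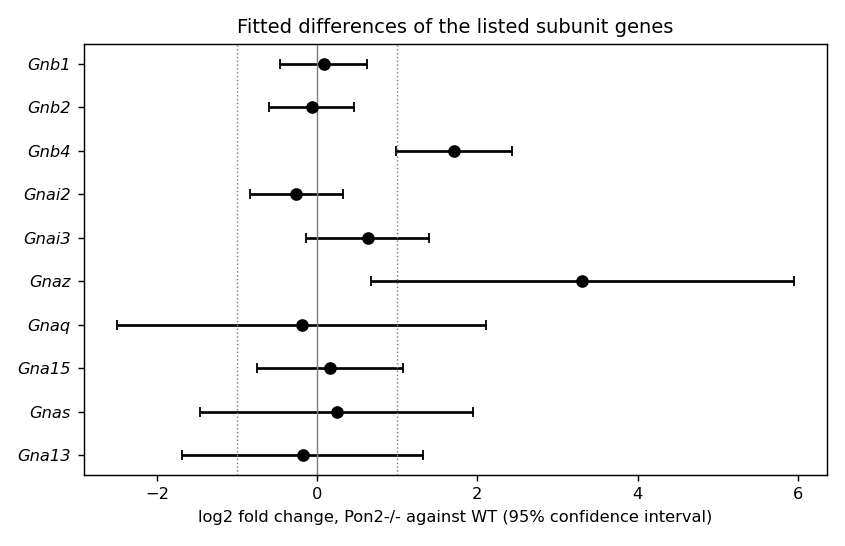
Fitted log2 fold change between Pon2-/- and WT HSCs (x axis, higher in Pon2-/- to the right) of each listed subunit gene (y axis), with 95% confidence intervals. Dotted lines mark a log2 fold change of 1 in either direction. The intervals of Gnb4 (0.98 to 2.43) and Gnaz (0.67 to 5.95) exclude 0, and the latter is the widest.

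Ordered by mean level per length of all annotated exons, WT HSCs had Gnai2 (59.1 CPM per kb), Gna15 (45.9), Gnai3 (35.9), Gnb1 (34.7), Gnb2 (23.1), Gna13 (7.61), Gnb4 (5.0), Gnaq (2.47), Gnas (0.51) and Gnaz (0.30). Among neighbours in this order, only Gnb2 and Gna13, with a mean log2 difference of 1.81 ± 1.12, and Gnaq and Gnas, with 2.29 ± 1.33, differed by more than the SD over the 6 mice. In Pon2-/- HSCs, Gnb4 (16.3 CPM per kb) stood before Gna13 (6.72) and Gnaz (2.95) before Gnaq (2.16), and only Gnb4 and Gna13 differed by more than their SD (1.98 ± 1.69). Per length of the longest coding transcript, Gnb4 stood before Gna13 in WT HSCs too (10.6 and 7.93 CPM per kb), with 3 of the 6 mice in that order. By this length, Gnaq and Gnas in WT HSCs no longer differed by more than their SD (0.95 ± 1.34). The neighbours Gnai2 and Gna15, Gnai3 and Gnb4, Gna13 and Gnaq, and Gnas and Gnaz did. The place of Gnas is uncertain by either length, as its count is.

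Grouped by class, the listed α genes kept similar shares of their summed level per length of all annotated exons. Gnai2, Gnai3 and Gnaz (Gi/z) took 63.4% ± 9.77 in WT and 65.0% ± 5.03 in Pon2-/- HSCs (SD, n = 6 each). Gnaq and Gna15 took 31.1% ± 9.71 and 30.7% ± 7.57, and Gna13 took 5.14% ± 2.92 and 3.99% ± 3.89. Gnas, the only listed Gs gene, took 0.376% ± 0.452 and 0.350% ± 0.0758. All of these differences lay within 1 SD. Other α genes are not in these shares, so they are not shares of whole classes. Among those left out, Gnal had 1.57 CPM per kb in WT and 1.06 in Pon2-/- HSCs, against 0.51 and 0.61 for Gnas. Gna11 had 6.61 and 3.49 CPM per kb, and Gna12 had 2.98 and 5.72. Since the Gnas count is uncertain, the shares hold for counted reads and the true part of Gs is not known.

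By the median, the listed genes varied among WT mice about as much as all tested genes, and among Pon2-/- mice less. Genes were not matched for level. The median coefficient of variation in WT HSCs was 52.8% over the 10 genes and 53.5% over all tested genes, and in Pon2-/- HSCs it was 43.9% and 55.3%. Gnb2 (21.7%) and Gnai2 (21.4%) were the steadiest in WT, and Gnaz (142%) varied most. The standard error of the log2 fold change accordingly ran from 0.25 for Gnb2 to 1.23 for Gnaz, so that the fit resolved smaller differences for the abundant β and Gi genes than for Gnaz, Gnaq and Gnas.

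All 10 listed genes passed the filter on low counts. Of them, 6 had a higher and 4 a lower fitted level in Pon2-/- HSCs, and the median log2 fold change was 0.12, against -0.01 over all 11848 tested genes. For the 8 genes other than Gnb4 and Gnaz, 4 were fitted higher and 4 lower, with a median of 0.0054 and log2 fold changes between -0.26 and 0.63. The median absolute log2 fold change of these 8 was 0.19, and over all tested genes it was 0.32.

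The other 63 genes of the pathway comprised further subunits, chaperones, modulators and effectors. Of these, 59 had a count, and 43 passed the filter. With edgeR, 0 of the 43 were called in either direction (against 0.203% of all tested genes). An unadjusted p below 0.05 was found for 0 (against 3.13%), and 0 had genotypes without overlap (against 0.633%). With limma voom (0.194% of genes called) and with DESeq2 at default settings (1.79%) the number called was also 0. With shares this small, 0 of 43 genes says little about the pathway. DESeq2 without Cook's cutoff (4.2% of genes called) called Gnb3 and Gna14, for each of which 1 library held all counts (129 and 134). The fitted level was higher in Pon2-/- HSCs for 22 of the 43 genes and lower for 21, with a median log2 fold change of 0.01.

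Other α and β subunit genes were mostly low. Gnb5, which pairs with regulators of G-protein signaling in place of γ subunits, had 24.8 ± 6.87 CPM in WT HSCs against 18.4 ± 9.14 CPM in Pon2-/- HSCs (SD, n = 6 each). Gna11 of the Gq/11 class had 27.1 ± 22.4 and 14.3 ± 14.9 CPM, and Gna12 of the G12/13 class had 10.2 ± 7.04 and 19.6 ± 15 CPM. None of these 11 genes was called by edgeR, and DESeq2 without Cook's cutoff called 2 of them, Gnb3 and Gna14, as given above.

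The γ subunits complete the dimer with β. In WT HSCs, Gng11 had 184 ± 30.3 and Gng5 120.5 ± 27.96 CPM, and in Pon2-/- HSCs they had 164 ± 46.1 and 112 ± 9.35 CPM (SD, n = 6 each). This gave log2 fold changes of -0.17 (standard error 0.19) and -0.11 (standard error 0.17). Of the 12 γ genes, 6 passed the filter, with log2 fold changes between -0.17 and 0.37.

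Nascent β subunits are folded by the CCT chaperonin with its cofactor Pdcl before they meet γ, and Ric8a and Ric8b are chaperones of α subunits. The most abundant per length, Cct5 (791 ± 186 CPM in WT against 789 ± 166 CPM in Pon2-/- HSCs) and Cct8 (552 ± 184 and 611 ± 137 CPM), had log2 fold changes of 0.00 and 0.15 (standard errors 0.19 and 0.21). Tcp1, another CCT subunit, gave an exact permutation p of 0.0411, with 320.1 ± 59.1 CPM in WT against 397 ± 55.3 CPM in Pon2-/- HSCs (SD, n = 6 each), an edgeR p of 0.0602 and an edgeR adjusted p of 1.0. Ric8b had 39.8 ± 30.03 and 19.5 ± 13.5 CPM, with a log2 fold change of -1.03 (standard error 0.89). Tcp1 and Ric8b were named after their values were seen.

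Among modulators, the receptor kinase Grk2 had 113 ± 40.6 CPM in WT against 115 ± 34.7 CPM in Pon2-/- HSCs, and Gpsm3, a regulator of Gi, had 20.02 ± 4.38 and 23.5 ± 5.91 CPM (SD, n = 6 each). Among effectors, Plcb2, a phospholipase C activated by βγ and Gq, had 153 ± 59.6 and 128 ± 39.8 CPM, and Arhgef1, a guanine nucleotide exchange factor downstream of G12/13, had 73.4 ± 33.4 and 85.1 ± 28.6 CPM. Their log2 fold changes lay between -0.26 for Plcb2 and 0.23 for Gpsm3. The widest difference among effectors was that of Plcb1, named after its value was seen, with 11.96 ± 13.6 CPM in WT against 3.16 ± 6.27 CPM in Pon2-/- HSCs and a log2 fold change of -1.92 (standard error 2.00, edgeR adjusted p = 1.0).

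**Figure D5:**
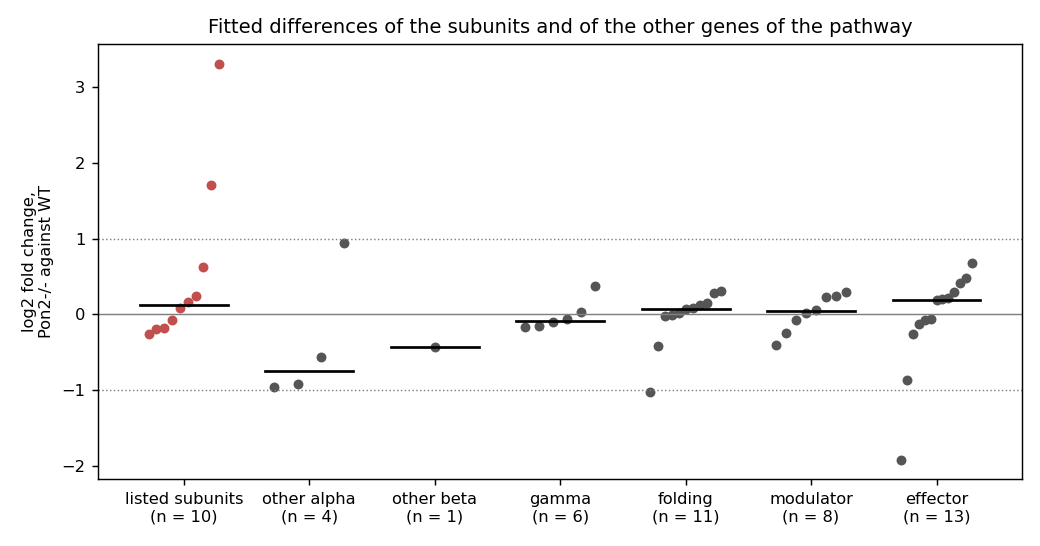
Fitted log2 fold change between Pon2-/- and WT HSCs (y axis) of the 10 listed subunits (red) and of the 43 other genes of the pathway that passed the filter (dark grey), by role (x axis). Each point is a gene, black lines are medians, and dotted lines mark a log2 fold change of 1 in either direction. Gnaz (3.31) and Gnb4 (1.71) are the 2 highest points, and the lowest is Plcb1 (-1.92).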

How the data were processed

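RNA-seq counts of HSCs from 6 WT and 6 Pon2-/- mice were used, with groups taken from the sample labels. The authors trimmed adapters with Trimmomatic 0.36, aligned reads with STAR 2.5.3a to GRCm38.p5 and counted reads per gene of GENCODE M12. The deposited values are raw counts per gene and mouse, and which strand setting was kept and how wells were joined are not given in the sources used here. Members and lists were chosen with earlier results of these data known.

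Counts were analysed in R 4.3.3 with edgeR 4.0.16 (TMM, filterByExpr and the quasi-likelihood test with genotype as covariate). A call required a Benjamini-Hochberg adjusted p under 0.05 together with a log2 fold change beyond 1 in either direction. CPM use the TMM-scaled library of the tested genes. Single genes were compared by exact permutation of log2 CPM (prior count 2), and ratios of counts with 0.5 added. Alternatives were DESeq2 1.42.0, limma voom 3.58.1, other size factors and filters, a replicate block and leaving out each sample. After seeing the data, Y-linked counts as a term and a second gene length were added. Certain markers and an alternative that rested on them are not reported here. The fit was tested on simulated data.

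Replicates are separate mice. Replicate numbers were not treated as pairs. Precision is limited by the spread between mice: the median standard error of the log2 fold change was 0.574 over 11848 tested genes. Names, positions and transcript sequences came from GENCODE M21 (GRCm38), which named 49326 of the 49585 genes. The named genes were all members, pathway genes that were called or did not overlap, and the 2 highest per length in each role. Transcripts were compared with blastn 2.17.0 and aligned with Biopython 1.88.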

Additional observations from a re-analysis of the deposited data

Results flagged for a closer look

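Among 28 groups of 6 values (the CPM of the 10 genes and the log2 ratios, per genotype), 2 held a sample far from the others by Dixon's gap test. Chance flags about 1 in 20 groups. The Gnaz level of WT replicate 5 was 4.14 CPM, while the next highest WT sample had 0.86 CPM. The log2 ratio of Gnb4 to Gnb1 in Pon2-/- replicate 2 was -1.05, while the next lowest Pon2-/- sample had 0.37. That sample also had the highest Gnb1 level (252 CPM) and the lowest Gnb4 level of the Pon2-/- samples (122 CPM).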

How the results depend on the processing

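The number of subunit genes called, 0 with edgeR, was 1 (Gnb4) with a filter of 10 reads in all samples of either genotype and with DESeq2 at default settings, 2 (Gnb4 and Gnaz) with DESeq2 without Cook's cutoff, and 0 to 1 when single samples were left out. The number of other pathway genes called was 0, and 2 with DESeq2 without Cook's cutoff. The log2 fold change of Gnb4 passed the thresholds with the filter of 10 reads (1.71, adjusted p = 0.0366), with DESeq2 at default settings and without Cook's cutoff (1.72 in both), and ranged from 1.49 to 1.98 without single samples (adjusted p = 0.0212 to 0.216 in edgeR). Gnaz passed with DESeq2 without Cook's cutoff (3.32) and ranged from 2.63 to 4.52 without single samples. Gnaz could not be fitted under the filter of 10 reads. Without single samples, the difference of the log2 ratios was 1.57 to 2.03 for Gnb4 to Gnb1, 1.57 to 2.11 for Gnb4 to Gnb2, 2.63 to 3.71 for Gnaz to Gnai2 and 1.51 to 2.75 for Gnaz to Gnai3. The cause of these changes was not tested.

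Of the other 8 subunit genes, none was called in 160 differences fitted under alternatives, 13 of which, in 5 genes, had the opposite sign. Without single samples, log2 fold changes ran from -0.11 to 0.20 for Gnb1, -0.21 to 0.031 for Gnb2, -0.52 to 0.24 for Gnaq, -0.21 to 0.29 for Gna15 and -0.87 to 0.046 for Gna13.

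Samples of the same number did not deviate together (correlations 0.00 to 0.04), so the numbers were not taken as pairs. With a replicate block, the log2 fold change was 1.75 for Gnb4 (edgeR adjusted p = 0.368) and 2.72 for Gnaz (edgeR adjusted p = 1.0), with 0 subunit and 0 pathway genes called. Sign flips within replicate numbers gave p = 0.03125 for the Gnb4 ratios and the ratio of Gnaz to Gnai2 (exact, the smallest possible) and 0.0625 for that of Gnaz to Gnai3, so the block changed no call. With 6 mice per genotype, a missed threshold leaves a difference possible, and genes at a few CPM, such as Gnaz and Gnas, have wide intervals.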
